A study of Mus musculus with 8 samples.

Results

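The comparison of pneumonectomy with sham surgery at 6 hours consists of 2 of the 8 Affymetrix arrays of this study of mouse lung regrowth. One array held lung RNA taken 6 hours after left pneumonectomy (PNY) and the other lung RNA taken 6 hours after sham thoracotomy (SHAM). The remaining 6 arrays held PNY and SHAM lung at 1, 3 and 7 days and are used here only to place the early values. Both arrays were chosen by their labels, and every array was made from lung tissue of 8 female C57BL/6 mice of 10-12 weeks, pooled in equal amounts. No engineered allele is named for any group. All mice of both groups received ketamine and xylazine, saline, ampicillin, intubation and mechanical ventilation, and buprenorphine after surgery. In PNY mice the left lung was tied off at its root and removed. In SHAM mice the left chest wall was opened for a few minutes and closed with both lungs in place, so that SHAM is itself an operated group. No array of unoperated lung was analysed here. The lungs were perfused and taken whole, and which lobes entered the pools is not given in the sources used here.

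Removal of one lung sends the whole cardiac output and each breath through the lung that is left, and in adult mice that lung regrows over the following days. The first hours also hold the response to surgery itself. Injured tissue makes chemokines, small secreted proteins that draw leukocytes, and cytokines such as interleukin-6, which reaches the liver and starts the acute phase response. Interferons switch on a separate set of antiviral genes through the factors STAT and IRF, while many chemokine genes are switched on by the factor NF-kB.

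The values are log2 expression values, 1 for each probe set of the array. Of the 45037 probe sets that are no controls, 34945 carry a single gene symbol, and together they measure 18193 genes. A gene is read from whichever of its probe sets was brightest on average, and every difference is PNY minus SHAM on the log2 scale. With 1 array a side there is no replicate, no standard deviation and no test, so every difference below describes these 2 pools of mice. A gene is called higher or lower where the arrays differ by a fold change of at least 1.5, which is 0.585 on the log2 scale. Fold changes carry a minus sign where the value was lower in PNY.

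The array pair had a faint trend with level. With the probe sets sorted by level into 10 equal bins, the median difference lay between -0.09 and -0.05 in the lower 5 bins and between 0.03 and 0.10 in the upper 4. The SHAM array of 6 hours had the highest lower quartile of the 8 arrays (4.18 against 4.02 to 4.09) and the lowest upper quartile (8.04 against 8.09 to 8.18). Medians of gene groups are therefore also given after this trend was subtracted, an alternative chosen after seeing the data. The control probes for the ends of beta-actin differed by 0.22 in PNY and 0.20 in SHAM, and those of Gapdh by -0.28 and -0.31, against -0.21 to -0.14 on the later arrays. Housekeeping genes lay close together, with none of 9 past the threshold and a median difference of -0.01.

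By this rule 124 genes were higher in PNY at 6 hours, or 0.682% of the 18193, and 189 were lower, or 1.04%. In both directions this makes 313 genes (1.72%), and 53.2% of all genes lay above 0. That share was 62.5% of genes above the median level of all probe sets and 34.5% of those at or under it. The other 17880 genes (98.3%) lay within the threshold, and the SD of the differences over all genes was 0.232. Past a 2-fold change there were 12 genes higher and 10 lower. Of the 313 genes, 39.6% were thus higher in PNY (Wilson 95% interval 34.4 to 45.1%, which takes the genes as independent). This split depended on scaling and level, and the share was 58.1% with each array centred on its median, 51.8% with quantile normalization once more and 52.4% with the level trend subtracted. Among the 12151 genes above the median level of all probe sets (5.92), 82 were higher (0.675%) and 62 lower (0.51%). At or under that level 42 were higher (0.695%) and 127 lower (2.1%).

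**Figure D1:**
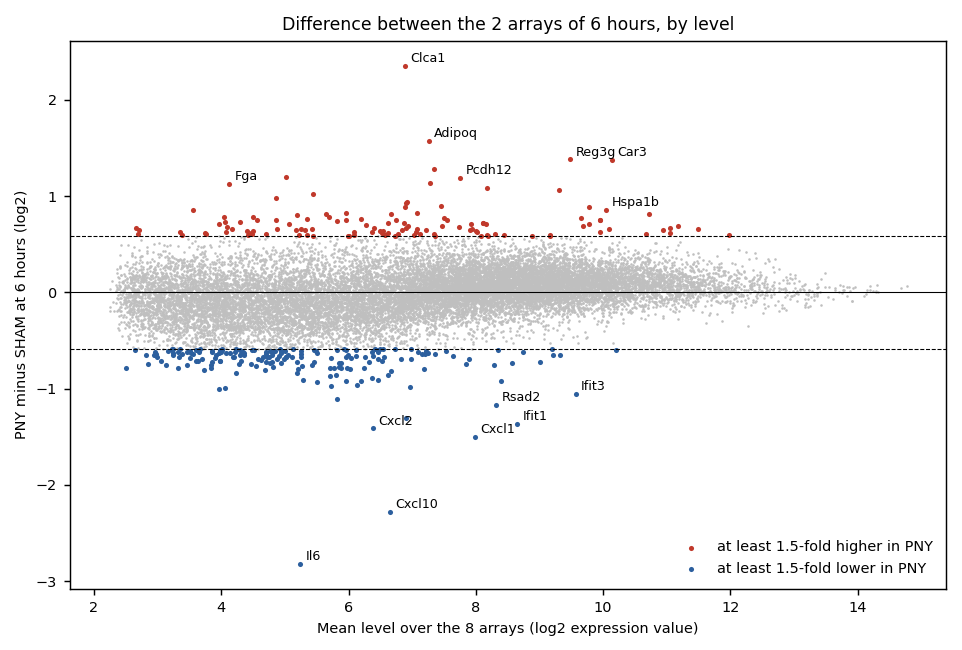
Each point is 1 gene, with its mean log2 value over the 8 arrays on the x axis and the log2 difference PNY minus SHAM at 6 hours on the y axis. Dashed lines mark a fold change of 1.5; Il6 and Cxcl10 lie far below the band of all genes and Clca1 far above it, with differences of -2.82, -2.28 and 2.36.

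Repeat probe sets of the same gene give a check of probe error on the same RNA. Of the 124 higher genes 32 had another probe set above the median level, and in 30 of them (93.8%) it differed the same way, past the threshold in 11. Of the 189 lower genes 10 had one, and in 9 (90%) it was also lower, past the threshold in 6. None of these other readings lay past the threshold in the opposite direction. This covers probes and not mice, surgery or labelling.

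A difference between 2 arrays can come from either side, and the 6 later arrays place each of them. For the lower genes the SHAM array held the highest value of all 8 arrays in 128 of 189 (67.7%, against 18.1% of all genes). The PNY array held the lowest value in 104 (55%, against 13%). For the 124 higher genes the SHAM array was the lowest of the 8 in 77 (62.1%, against 23.1%), and the PNY array the highest in 46 (37.1%, against 13.4%). The shares for called genes are raised by the call itself, and are read only side by side. Over all genes, both 6 hour arrays lay below all later arrays in 18.4% and above all of them in 11.3%, so such a shape is common.

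**Figure D2:**
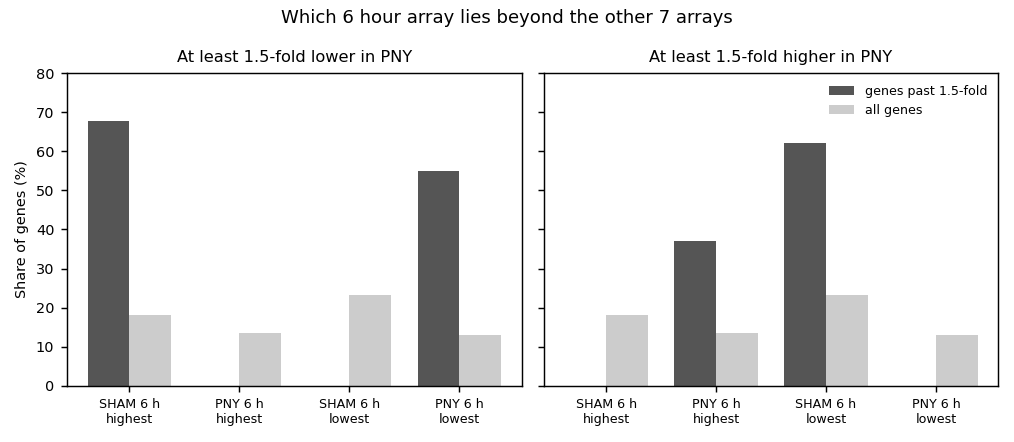
Bars give the percentage of genes for which a 6 hour array held the highest or the lowest value of the 8 arrays, for genes at least 1.5-fold lower (left) and higher (right) in PNY, with all genes in light grey. Among the lower genes the SHAM array was the highest in 67.7%, and among the higher genes it was the lowest in 62.1%.

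Chemokines had the lowest median difference of all lists, and cytokines leaned less. Of 32 chemokines measured, 11 were at least 1.5-fold lower in PNY and none higher, 27 lay below 0, and the median difference was -0.33 (-0.34 with the level trend subtracted), against 0.02 over all genes. The 11 included the neutrophil attractants Cxcl1, Cxcl2 and Cxcl3, the T cell attractants Cxcl9 and Cxcl10, and the monocyte attractants Ccl2 and Ccl7. Of 32 cytokines 6 were lower and none higher, with 12 above 0 and a median of -0.10 (-0.07 with the level trend subtracted). Only 1 of the 6 lay above the median level of all probe sets.

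Cxcl1, Cxcl2, Cxcl3 and Cxcl10 sit in the same region of a chromosome, and Il6 lies far from them on that chromosome. Part of the promoters of these genes and of Il6 is shown because they carry the comparison. The stretches are from the RefSeq promoters, build GRCm38.p6, written 5′ to 3′ on the strand of the gene. Capitals mark matches to the kB site, the binding motif of NF-kB, and in Cxcl10 also the first capital run, a match to the interferon-stimulated response element (ISRE, here GAAA followed after any 2 bases by GAAA again).
Cxcl1, chr5:90891115-90891204, plus strand: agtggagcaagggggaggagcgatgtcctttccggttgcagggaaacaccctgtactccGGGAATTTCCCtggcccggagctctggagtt
Cxcl2, chr5:90903769-90903858, plus strand: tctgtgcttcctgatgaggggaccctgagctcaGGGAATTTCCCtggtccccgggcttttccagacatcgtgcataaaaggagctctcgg
Cxcl3, chr5:90785971-90786060, plus strand: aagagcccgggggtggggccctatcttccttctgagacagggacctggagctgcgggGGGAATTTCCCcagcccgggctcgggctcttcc
Il6, chr5:30013004-30013093, plus strand: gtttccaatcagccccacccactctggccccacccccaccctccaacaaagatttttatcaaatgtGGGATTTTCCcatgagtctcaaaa
Cxcl10, chr5:92348970-92349119, minus strand: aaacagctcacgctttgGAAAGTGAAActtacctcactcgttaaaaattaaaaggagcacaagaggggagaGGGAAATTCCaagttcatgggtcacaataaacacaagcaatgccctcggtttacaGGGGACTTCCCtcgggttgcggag
The stretches of Cxcl1, Cxcl2 and Cxcl3 hold the same run of capitals, which reads as a kB site on both strands, and no kB match overlaps an ISRE match in those of Il6 and Cxcl10. Both motifs were searched on both strands from 250 bases before to 50 bases after the start site. Of the 11 lower chemokines 8 have a promoter there and 4 of those hold a kB match (50%). The share was 2 of 15 (13.3%) for the chemokines within the threshold and 9.55% of all 27025 genes with a promoter. The 4 are Cxcl10 and the nearby, related Cxcl1, Cxcl2 and Cxcl3 with their shared run, so they do not count as independent genes. Among the lower cytokines, 2 of 4 with a promoter hold one, Il6 and Lif, against 4 of 18 (22.2%) of the cytokines within the threshold. These are matches of letters in a window, given as a description.

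Interleukin-6, the cytokine that drives the acute phase response, had the largest difference of all genes. Il6 read 5.09 in PNY and 7.91 in SHAM at 6 hours, a fold change of -7.05. At the later times PNY and SHAM read 4.27 and 3.92 at 1 day, 5.73 and 4.27 at 3 days, and 5.61 and 5.10 at 7 days. The SHAM value of 6 hours thus lay above all 7 other arrays, while the PNY value lay inside the range of the later ones. It is a gene of modest level on these arrays, measured by 1 probe set.

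Cxcl10, an interferon-inducible chemokine that attracts T cells, came next on the lower side. It read 5.74 in PNY and 8.02 in SHAM at 6 hours (fold change -4.86), and then 6.27 and 5.66 at 1 day, 7.53 and 6.72 at 3 days, and 6.89 and 6.44 at 7 days. The order of PNY and SHAM was turned at each of the later times. Cxcl9, which binds the same receptor, read 5.23 in PNY and 6.34 in SHAM, the lowest and the highest of its 8 values.

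Cxcl1, a ligand of the neutrophil receptor Cxcr2, read 8.07 in PNY and 9.57 in SHAM (fold change -2.83), against 7.33 to 8.12 on the later arrays. Its 3 probe sets gave differences of -1.50, -0.80 and -1.60. Cxcl2, of the same family, read 6.30 and 7.71 (fold change -2.66), against 5.18 to 6.99 later. For both genes the SHAM array of 6 hours was the highest of the 8 and the PNY array lay among the later ones. Cxcl3 differed from them in that both its values, 5.28 and 6.24, lay within its wide later range of 3.75 to 7.95.

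The lower chemokines of the Ccl family, which draw different leukocytes, showed smaller gaps. Ccl7 read 5.63 in PNY and 6.55 in SHAM, against 5.08 to 5.75 on the later arrays. The differences of Ccl3, Ccl2, Ccl22, Ccl8 and Ccl4 were -0.79, -0.72, -0.64, -0.62 and -0.59. In 8 of the 11 lower chemokines SHAM at 6 hours was the highest of the 8 arrays, and in 4 PNY was the lowest. Over all lower genes these shares were 67.7% and 55%. The 5 chemokines above 0 were Ppbp (0.36) and Pf4 (0.14), which platelets carry, Cxcl13 (0.31), the lung-specific Cxcl15 (0.05) and Ccl6 (0.05), chosen for naming after their values were seen. None of the 5 reached the threshold.

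The other lower cytokines were Csf3, which drives neutrophil production (5.75 in PNY and 6.62 in SHAM, later 5.23 to 5.88), Il5, Lif, Il23a and Il1b. Their differences were -0.87, -0.78, -0.73, -0.63 and -0.61. Il1b, an early inflammatory cytokine, read 9.06 and 9.67, against 8.12 to 9.06 later. Il5 and Il23a are dim on these arrays, with mean levels of 3.83 and 3.24, near the lower end of the scale. In 5 of the 6 lower cytokines SHAM was the highest of the 8 arrays, against 67.7% of all lower genes.

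The receptors and intracellular regulators of these ligands lay near SHAM. Of 23 NF-kB subunits and feedback inhibitors none was past the threshold, with 11 above 0, a median of -0.01 and a range of -0.43 (Nfkbid) to 0.35 (Traf1). Nfkb1 itself was not analysed here. Of 28 cytokine receptors and JAK-STAT feedback genes only Tnfrsf12a, the receptor of the cytokine TWEAK, was past the threshold, at 0.59, and it was 0.49 with the level trend subtracted. Of 29 leukocyte adhesion genes and integrins none was, with a median of 0.06.

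Interferon-stimulated genes were lower as a group. Of 39 measured, 8 were at least 1.5-fold lower and none higher, and the median was -0.27. Only Irf9 (0.10) and Isg20 (0.01) lay above 0, and with the level trend subtracted all 39 lay below 0, with a median of -0.31. The 8 lower genes were Ifit1, Rsad2, Ifit3, Oasl1, Cmpk2, Irf7, Usp18 and Oasl2, which code for RNA-binding proteins, antiviral enzymes and regulators of the interferon response.

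The promoters of Ifit1, Ifit3 and Rsad2 are shown because they hold matches to the ISRE among the 8 lower genes, with these matches in capitals, again from RefSeq on GRCm38.p6.
Ifit1, chr19:34640719-34640828, plus strand: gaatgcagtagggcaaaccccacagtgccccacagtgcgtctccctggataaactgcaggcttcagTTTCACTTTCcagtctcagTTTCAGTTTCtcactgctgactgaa
Ifit3, chr19:34583359-34583468, plus strand: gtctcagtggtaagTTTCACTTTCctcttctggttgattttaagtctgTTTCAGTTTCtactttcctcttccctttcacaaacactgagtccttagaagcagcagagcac
Rsad2, chr12:26456513-26456622, minus strand: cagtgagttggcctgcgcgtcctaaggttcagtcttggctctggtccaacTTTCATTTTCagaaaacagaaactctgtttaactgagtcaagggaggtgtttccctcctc
Of the 7 lower genes with a promoter there, 3 hold an ISRE match (42.9%), about the share of the interferon-stimulated genes within the threshold (10 of 23, or 43.5%), against 3.99% of all genes with a promoter.

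Ifit1, which binds foreign RNA, read 8.31 in PNY and 9.68 in SHAM at 6 hours (fold change -2.58). Its later PNY and SHAM values were 8.44 and 8.29 at 1 day, 8.68 and 8.92 at 3 days, and 8.34 and 8.49 at 7 days. Here again the SHAM array of 6 hours stood alone above the others.

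Rsad2, the antiviral enzyme viperin, read 7.81 and 8.98 against a later range of 7.95 to 8.76, so that PNY was the lowest of the 8 arrays and SHAM the highest. Its 3 probe sets gave -1.17, -1.17 and -1.74. Ifit3 read 8.97 and 10.02 against 9.26 to 10.14, and only PNY lay outside the later arrays. The same held for Irf7, the main inducible regulator of type I interferon genes, with 8.08 and 8.82 against 8.15 to 9.14.

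Across the 39 interferon-stimulated genes PNY at 6 hours was the lowest of the 8 arrays in 18 and SHAM the highest in 5. Among the 32 chemokines these counts were 10 and 11. Over all genes the shares were 13% and 18.1%. Both lists thus had lower values in PNY, but the departure from the later arrays lay more on the PNY side for the interferon-stimulated genes. The difference between the lists was not tested.

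**Figure D3:**
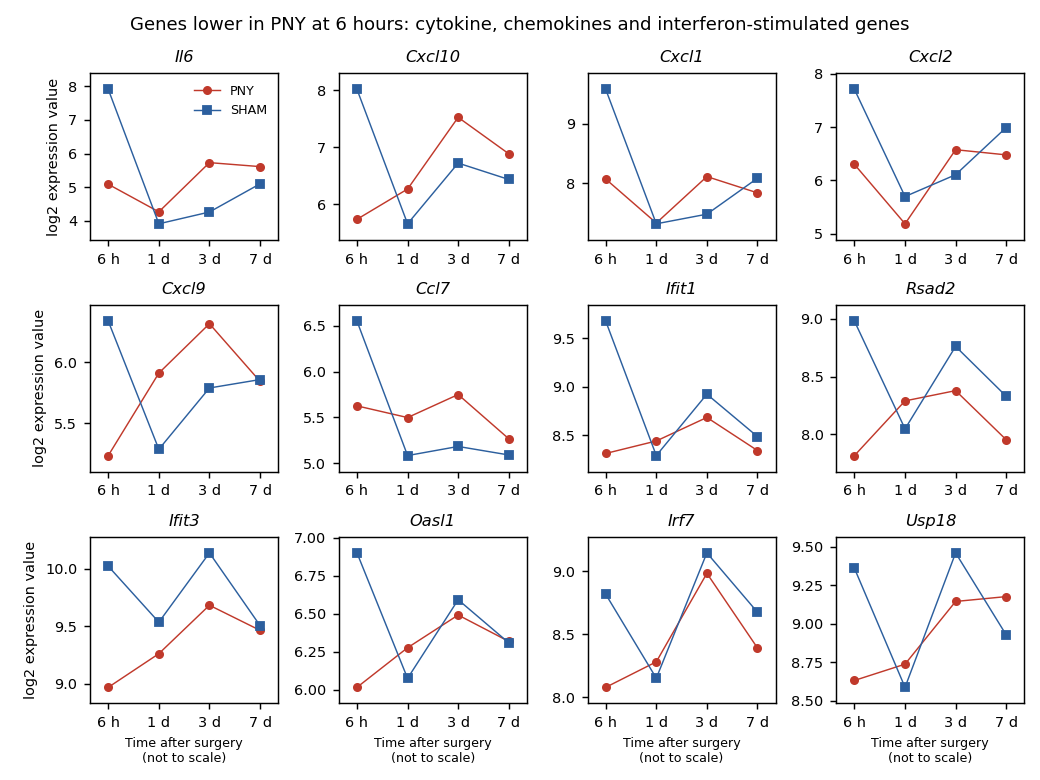
Each panel shows 1 gene that was lower in PNY at 6 hours, with its log2 expression value on the 8 arrays on the y axis and the time after surgery on the x axis. Il6, Cxcl10, Cxcl1, Cxcl2 and Ifit1 have their highest value of all in SHAM at 6 hours (blue squares), while Ifit3, Irf7, Oasl1, Rsad2 and Cxcl9 have their lowest in PNY at 6 hours (red circles).

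Markers of leukocytes were also read beside these lists. In whole lung, fewer cells of a type and less RNA per cell cannot be told apart. Of 15 T cell markers 12 lay below 0, with a median of -0.23, and Cd3g (-0.64) and Cd247 (-0.62), chains of the T cell receptor complex, were past the threshold. Cd247 was -0.46 as the mean of its probe sets and -0.57 with each array centred, under the threshold. The summed level of the list on the linear scale was 1852 in PNY and 2364 in SHAM, against 2243 to 4645 on the later arrays. Of 15 B cell markers 13 lay below 0 with a median of -0.19, and their summed level was 2164 and 2562, against 3463 to 5372. Of 15 NK cell and cytotoxic markers 12 lay below 0 with a median of -0.08 (9 and -0.12 with the level trend subtracted), and none was past the threshold. Their summed level was 1553 and 1860, against 2722 to 4156. For B cell and for NK cell and cytotoxic markers both arrays of 6 hours thus lay under all later ones, and for T cell markers PNY alone.

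Neutrophil markers lay near SHAM. Of 18 measured 15 lay above 0, with a median of 0.10 (11 above 0 and a median of 0.06 with the level trend subtracted), and their summed level was 27675 in PNY and 25673 in SHAM, above all later arrays (12396 to 20183). The granule protein Ngp was the only one higher past the threshold, with 8.98 in PNY and 8.40 in SHAM. It was 0.51 with the level trend subtracted, against 0.59. Il1b, which that list also holds, was the only one lower, as given above. Markers of serosal macrophages were lower in 3 of 12, Serpinb2 (-0.79), Cd5l (-0.69) and Alox15 (-0.66), and in each PNY at 6 hours was the lowest of the 8 arrays. Of these 12 markers 4 lay above 0 and the median was -0.17, but their summed level was higher in PNY, at 4990 against 4430 in SHAM. Adgre4, the 1 of 14 monocyte and interstitial macrophage markers past the threshold, read 5.38 and 6.18. Of 13 alveolar macrophage markers only Fabp4 was, and of 14 genes of MHC class II and dendritic cells only the dendritic cell factor Zbtb46 (0.72, and 0.35 as the mean of its probe sets). Of 15 type 2 effectors Il5, Alox15 and Ccl8 were lower, but 8 lay above 0, the median was 0.09 and the summed level was 17004 in PNY and 14992 in SHAM. The part of these markers in the lower chemokines and interferon-stimulated genes was not tested.

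The gene with the largest difference on the higher side belongs to mucus. Clca1, a secreted protein of goblet cells that acts on mucus, read 8.10 in PNY and 5.74 in SHAM at 6 hours, a fold change of 5.12. It then read 7.00 and 5.72 at 1 day, 9.25 and 5.20 at 3 days, and 8.58 and 5.51 at 7 days. SHAM stayed within 5.20 to 5.74 at all 4 times and PNY lay above it at each. Clca1 was the only gene at least 1.5-fold higher at all 4 times. Its other probe set, with a mean level of 2.82, differed by 0.08.

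Of 18 goblet cell genes 4 were higher and none lower, with a median of 0.09. Besides Clca1 these were the mucin Muc5b (0.71), the secreted defence protein Bpifb1 (0.66) and Agr2 (0.59), which folds mucins. Muc5b read 8.86 in PNY, the highest of the 8 arrays, and 8.15 in SHAM. Agr2 read 5.54 and 4.95. The list is led by 1 gene, and its other members spread on both sides of 0 from -0.52 upward.

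Of 31 genes of the acute phase and mucosal defence 7 were higher and none lower, 24 lay above 0, and the median was 0.20 (0.17 with the level trend subtracted). Reg3g, an antibacterial lectin of epithelia, read 9.95 in PNY and 8.57 in SHAM (fold change 2.61), with 9.90 and 8.85 at 1 day, 9.94 and 9.38 at 3 days, and 10.36 and 8.92 at 7 days. PNY was higher at every time. Here SHAM at 6 hours was the lowest of the 8 values.

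The other 6 were Fga (1.13), Bpifb1, Bpifa1 (0.66), Saa3 (0.60), Orm1 (0.59) and Ngp. Saa3, a serum amyloid protein, read 11.65 in PNY and 11.04 in SHAM, against 9.64 to 11.10 later. Fga, the fibrinogen alpha chain that is made mainly in liver, read 5.92 and 4.79 at 6 hours and 3.27 to 4.01 later, so that both early arrays lay above the rest. Bpifa1, Bpifb1, Saa3 and Ngp were no longer past the threshold with quantile normalization once more (0.57, 0.58, 0.51 and 0.49), which left 3 of the 7.

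Adipocyte genes were higher as a group of a few strong members. Of 11 measured 4 were higher and none lower, with a median of 0.35 (0.42 with the level trend subtracted). PNY at 6 hours was the highest of the 8 arrays in 9, against 13.4% of all genes. Adipoq, the fat cell hormone adiponectin, read 8.47 in PNY and 6.89 in SHAM (fold change 2.98), then 7.72 and 7.38, 7.01 and 7.56, and 6.83 and 6.23 at 1, 3 and 7 days. Fabp4, a lipid carrier of fat cells, macrophages and endothelium, read 10.56 and 9.49 against 8.60 to 9.54 later. Both genes were highest in PNY at 6 hours.

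Retn and Plin4, a fat cell hormone and a lipid droplet protein, differed by 0.61 and 0.60. Car3, a carbonic anhydrase abundant in fat and muscle, read 11.05 in PNY and 9.68 in SHAM. It then read 10.92 and 10.07 at 1 day, 9.80 and 10.30 at 3 days, and 9.96 and 9.29 at 7 days, so that the order was turned at 3 days. The thermogenic protein Ucp1 (-0.19) and the lipase Lipe (-0.01), named after their values were seen, were the 2 members below 0. The summed linear level of the list was 7685 in PNY and 5610 in SHAM, against 3933 to 4938 on the later arrays. With probe sets left out whose names mark probes shared between transcripts, Fabp4 differed by 0.43. How much fat tissue came with each pool was not tested.

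Mesothelium, the cell layer on the lung surface, showed 3 of 12 markers higher and none lower, with 11 above 0 and a median of 0.35 (0.25 with the level trend subtracted). Msln, its defining surface protein, read 9.36 in PNY and 8.59 in SHAM, against 9.27 to 10.34 later. Wt1, its transcription factor, read 7.27 and 6.59, against 6.83 to 7.95. The third was Cpe, at 0.76, but a dimmer probe set of it read -0.49 and the mean over both was 0.14. SHAM at 6 hours was the lowest of the 8 arrays in 8 of the 12. It was so in 23.1% of all genes and in 3820 of the 12151 above the median level. The summed level was 13050 in PNY and 10923 in SHAM, both under the later arrays (13646 to 18723).

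Bnc1 and Cldn15 had the shape of that summed level, with both arrays of 6 hours under the later ones. For Msln, Wt1 and Cpe only SHAM lay under them. Bnc1, a transcription factor of surface epithelia, read 6.57 in PNY and 5.43 in SHAM at 6 hours, then 7.50 and 7.37 at 1 day, 8.04 and 8.36 at 3 days, and 7.33 and 7.69 at 7 days. Cldn15, a tight junction protein, read 7.47 and 6.38 against 8.29 to 9.16 later. Both genes were thus below every later array in PNY and SHAM alike, and SHAM was further below. In 18.4% of all genes both 6 hour arrays lay below every later array. Pcdh12, a cadherin of endothelial junctions, followed this shape with 7.05 and 5.86 against 7.88 to 8.72, but its other probe sets differed by only -0.06 to 0.16.

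Heat shock genes all lay above 0. Of 19 chaperones 2 were past the threshold and the median was 0.25. With the level trend subtracted the median was 0.17 and 15 lay above 0. Hspa1b, an inducible Hsp70, read 11.82 in PNY and 10.97 in SHAM, both above the later arrays (9.04 to 10.70), and its other 2 probe sets differed by 0.95 and 0.96. Hsph1, its exchange factor, read 9.78 and 8.89, and there SHAM was the lowest of the 8 arrays. Its second probe set also differed by 0.89.

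Genes of the stretch-responsive factors YAP and TEAD lay above 0 in 19 of 20, with a median of 0.18 (0.10 with the level trend subtracted, 18 above 0), and 2 were past the threshold. Ccn1, a matrix-bound growth regulator, read 9.76 in PNY and 9.01 in SHAM, with 9.78 and 8.89 at 1 day, 10.66 and 10.17 at 3 days, and 10.88 and 10.45 at 7 days. Ccn2, the connective tissue growth factor, read 11.42 and 10.78, and its later differences were 0.58, 0.53 and 0.66. PNY lay above SHAM for both genes at all 4 times. Their differences at 6 hours are close to the threshold and under it in some settings, at 0.53 for Ccn1 as the mean of its probe sets and 0.56 for Ccn2 with quantile normalization once more.

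**Figure D4:**
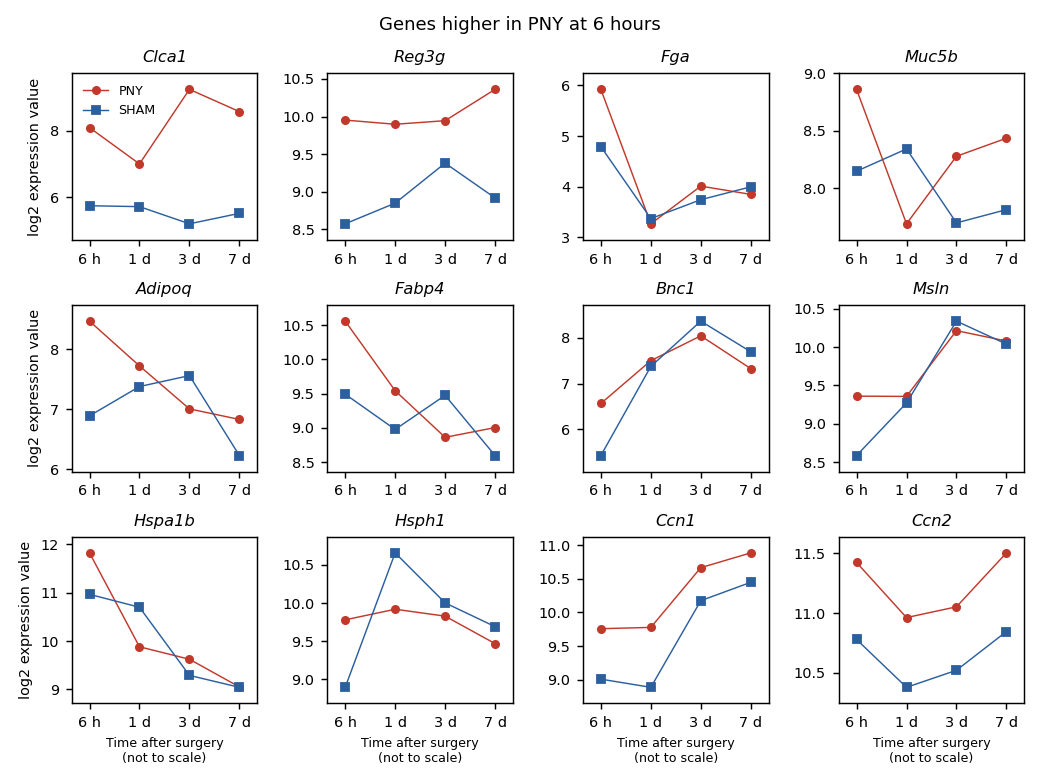
Each panel shows 1 gene that was higher in PNY at 6 hours, with its log2 expression value on the 8 arrays on the y axis and the time after surgery on the x axis. Clca1, Reg3g, Ccn1 and Ccn2 lie above SHAM at all 4 times, Adipoq, Fabp4 and Hspa1b have their highest value in PNY at 6 hours, and Bnc1, Msln and Hsph1 their lowest in SHAM at 6 hours.

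Clock genes leaned to lower values. Of 21 measured 14 lay below 0 with a median of -0.21. SHAM at 6 hours was the highest of the 8 arrays in 13, against 18.1% of all genes. Dbp, an output gene of the clock, read 8.83 in PNY and 9.57 in SHAM, against 6.32 to 8.51 later, and its second probe set differed by -0.76. Ciart, a clock repressor, read 6.84 and 7.54, against 6.05 to 6.36. Npas2, a clock activator, was the higher one, with 5.67 and 4.74 against 7.17 to 8.05, though its second probe set differed by 0.08. On all these genes both early arrays lay outside the later ones on the same side, and SHAM lay further out.

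Other genes set both early arrays apart with little between them. The 27 glucocorticoid-responsive genes had a summed linear level of 101899 in PNY and 100355 in SHAM, against 47353 to 52205 on the later arrays, and a median difference of 0.02. Only Map3k6 (0.59) and Ddit4 (-0.65) were past the threshold. Metallothionein and NRF2 genes summed to 51737 and 50005, against 25587 to 27560, with none of 22 past the threshold. Hmox1, the heme-degrading enzyme of that list, read 9.81 and 9.26, against 8.19 to 8.30. The large early shift in these lists was seen in both pools. Both lists hold Mt1 and Mt2, so their sums overlap.

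Immediate early genes showed no common direction. Of 40, 21 lay above 0 and 19 below, with a median of 0.02, and only Klf4, a factor of epithelial and endothelial quiescence, was past the threshold (0.67, and 0.69 by its second probe set). With quantile normalization once more Klf4 was 0.57, under the threshold. Of 24 EGF ligands and ERK feedback genes none was past the threshold, from Ereg at -0.50 upward. The same was true of the 26 genes of the unfolded protein and integrated stress response, the 27 of hypoxia and glycolysis, the 23 of cholesterol and fatty acid synthesis and the 16 of retinoic acid.

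Matrix and growth factor genes showed small differences at 6 hours. None of 33 collagens and elastic fibre genes was past the threshold (none at 1 day, 4 at 3 days and 7 at 7 days). Still, 26 lay above 0, with a median of 0.18 (0.10 with the level trend subtracted). SHAM was the lowest of the 8 arrays in 16, against 23.1% of all genes and 3820 of the 12151 above the median level. Lox, which cross-links collagen, read 11.69 in PNY and 11.17 in SHAM, both above its later range of 9.55 to 10.21. Of 36 matricellular proteins and matrix proteases Thbs2 (0.60) was higher and Mmp12 (-0.59) lower. The other 2 probe sets of Thbs2 differed by -0.03 and 0.05.

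Among growth factors, 2 of 21 FGF, HGF and PDGF genes were higher, Fgf18 and Pdgfc, and none was lower. Above 0 lay 16, with a median of 0.22 (15 and 0.16 with the level trend subtracted). Fgf18, which acts on alveolar mesenchyme, read 5.93 in PNY and 5.28 in SHAM, both under the later arrays (7.35 to 7.85). Pdgfc differed by 0.59, and by 0.43 as the mean of its probe sets. In the IGF axis, 18 genes, Igfbp5 was higher (0.69) and Stc1 lower (-0.86), and 14 lay above 0 (11 with the level trend subtracted). Of 35 Wnt and Notch genes 30 lay above 0, and 26 with the level trend subtracted. Past the threshold were 2, the secreted Wnt inhibitor Sfrp1 (0.68, and 0.30 as the mean of its probe sets) and Wnt3a (0.62). None of 34 TGF-beta, BMP and activin genes and none of 22 genes of the VEGF and angiopoietin pathway was past it.

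Mitotic genes of the G2/M list leaned slightly above SHAM at 6 hours. Above 0 lay 26 of 37, and with the level trend subtracted 27, with a median of 0.14. Of 37 G2/M genes 2 were higher at 6 hours, against 5 at 1 day, 29 at 3 days and 37 at 7 days, and the median difference was 0.14, 0.24, 0.96 and 1.65 at these times. Nuf2, a kinetochore protein, read 5.70 in PNY and 4.88 in SHAM. Ect2, which drives cytokinesis, read 6.52 and 5.91. For both the SHAM array of 6 hours was the lowest of the 8. Of 32 S phase genes only Exo1 was past the threshold (0.60), and its other probe sets differed by -0.06 and 0.25.

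The resident cell types of the lung differed little between the pools. No marker of alveolar type I cells (11), alveolar type II cells (12), club cells (11), ciliated cells (15), capillary endothelium (14), lymphatic endothelium (7), smooth muscle (12) or fibroblasts (16) was past the threshold. The defining markers were bright, as in lung: Sftpc of type II cells read 14.69 in PNY and 14.65 in SHAM, Scgb1a1 of club cells 14.80 and 14.73, Ager of type I cells 13.83 and 13.82, and Pecam1 of endothelium 11.30 and 11.02. Markers of striated muscle (16) were not past it either. Among cardiac genes only Gja5, a connexin that large arteries also use, was lower, with 4.65 and 5.45 against 6.14 to 6.64 later. Thymocyte markers, with a median difference of 1.96 at 1 day, had a median of -0.16 at 6 hours and none of 13 past the threshold.

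**Figure D5:**
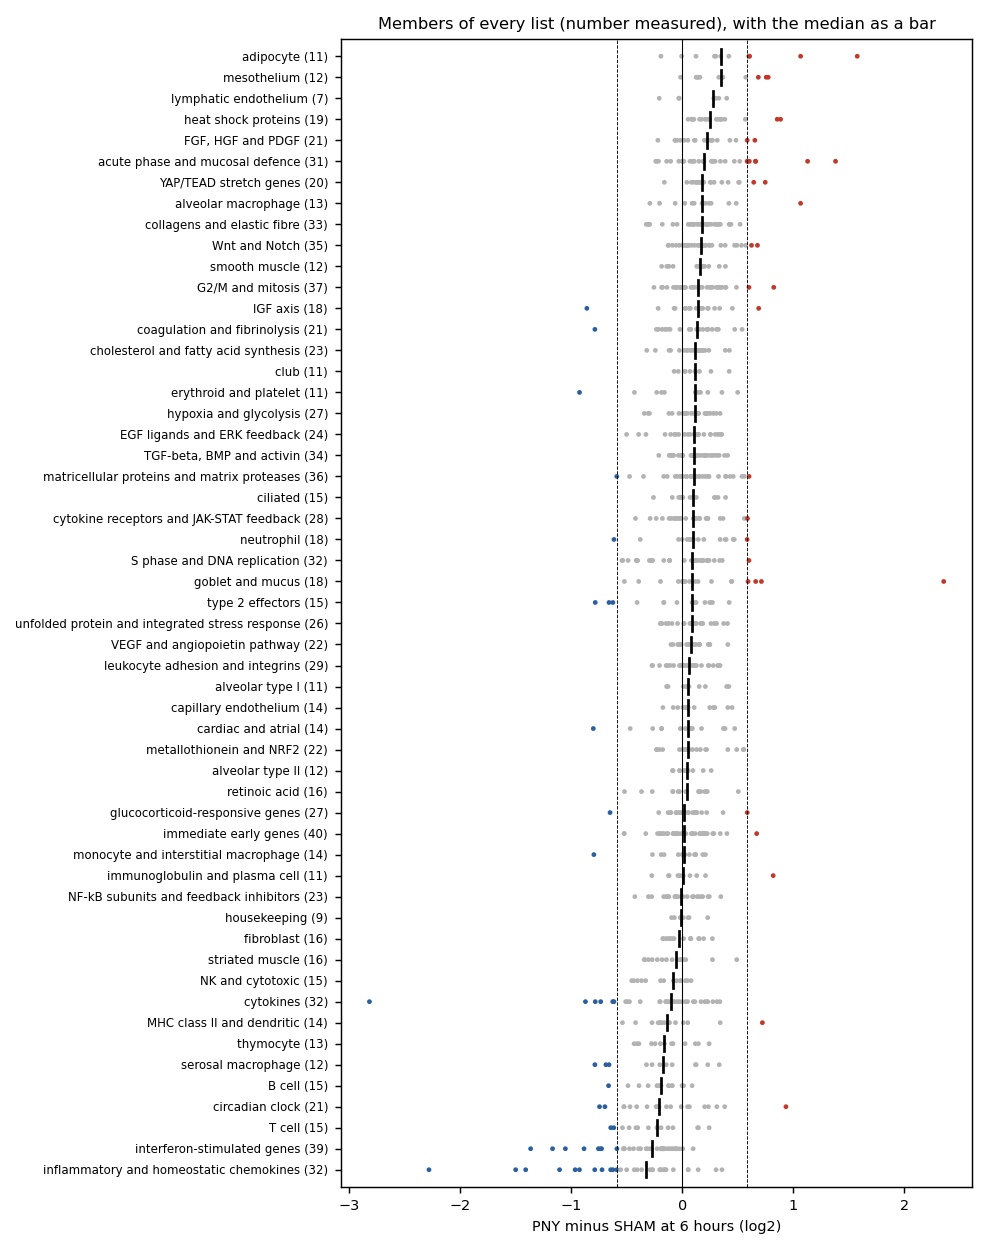
Each row is 1 list of pathway genes or cell type markers, with the number measured in brackets and every measured member as a point at its log2 difference PNY minus SHAM at 6 hours (red or blue past a fold change of 1.5). The black bar is the list's median, lowest for chemokines (-0.33) and interferon-stimulated genes (-0.27) and highest for mesothelium and adipocyte markers (0.35 each).

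Ceacam1, an adhesion molecule of epithelia and leukocytes, read 9.59 in PNY and 9.62 in SHAM by its brightest probe set. Its other 7 probe sets lay above 0, with differences from 0.14 to 0.48, none past the threshold. Itgav, the integrin alpha v chain that activates TGF-beta, read 10.21 and 9.97. A dimmer probe set of it, with a mean level of 7.42, differed by 0.61. The Itgav probe set at a level of 5.01 differed by 0.34, and those at 3.79 and 2.73 by -0.09 and -0.0. For both genes the size thus turned on the probe set, while most of their probe sets lay above 0.

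Antibody genes cannot be given a direction. Ighm, the mu heavy chain, read 11.09 in PNY and 10.27 in SHAM by the brightest of its 11 probe sets, and the others ran from -1.27 to 0.45. Igk differed by 1.28, with the other 3 probe sets from -0.63 to -0.10, and the variable segment Igkv15-103 by -0.91. Such probe sets share sequence within a large gene family, and Igkv15-103 differed by 2.88 at 1 day and -3.37 at 7 days.

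Further leading genes belong to none of the lists, or to lists that did not differ otherwise. On the lower side Alas2, which makes heme in red cell precursors and was alone past the threshold among 11 red cell and platelet markers, read 8.49 in PNY and 9.42 in SHAM and was lower at the other 3 times as well (-0.19, -1.07 and -1.39). Stc1, a secreted glycoprotein, read 6.16 and 7.02, the lowest and the highest of its 8 values. Cdkl4, a kinase, differed by -1.30, and its second probe set by 0.01. Lrrc17 (-0.99) and Shisa2 (-0.92) also had a second probe set near 0 (0.12 and 0.09), and Ces2b, a carboxylesterase, differed by -0.92. On the higher side Peg3, an imprinted zinc finger gene, read 7.95 and 7.05, but 0.40 as the mean of its 5 probe sets. Epha4 (0.89) was 0.35 as the mean of its probe sets, and Cass4, an adhesion scaffold with 1 probe set, differed by 0.93.

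Few of these differences were seen again at later times, on other pools of mice. Of the 124 higher genes 15 (12.1%) were also at least 1.5-fold higher at 1 day, 7 (5.65%) at 3 days and 15 (12.1%) at 7 days. The shares over all genes were 1.88%, 1.14% and 1.98%. At least 1.5-fold lower were 8 (6.45%), 5 (4.03%) and 5 (4.03%) of them, against 1.09%, 0.511% and 1.48% of all genes. Of the 189 lower genes 6 (3.17%), 6 (3.17%) and 13 (6.88%) were lower again, against 1.09%, 0.511% and 1.48% of all genes. At least 1.5-fold higher were 11 (5.82%), 6 (3.17%) and 4 (2.12%) of the 189, against 1.88%, 1.14% and 1.98% of all genes. At 7 days this was near the share of all genes. No gene was lower past the threshold at all 4 times. Chemokines as a list had median differences of -0.33, 0.15, 0.17 and 0.00 at 6 hours, 1, 3 and 7 days, and interferon-stimulated genes of -0.27, 0.15, -0.20 and -0.04.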

How the data were processed

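Lung RNA of 8 groups of mice, PNY and SHAM at 6 hours and 1, 3 and 7 days, was hybridised to 8 arrays, each a pool of 8 mice. The deposited log2 values are the authors' RMA output from the CEL files, made in BioConductor (version not given in the sources used here). RMA corrects background, quantile-normalizes over the arrays and gives 1 value per probe set. Quantile normalization forces like distributions, so a shift of all genes cannot be seen. The file states no log base, and the range is that of log2 RMA values. The depth is a matter of arrays: their number, 1 a group, limits the precision, and no probe-level values were used here, so the study's S-scores were not computed.

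Of 45101 probe sets 64 controls were left out. A single symbol is given for 34945, several for 932 and none for 9160 of the others, and genes were named only from the first, of which 34741 were found in RefSeq. From these deposited log2 values, differences between the arrays, calls at a fold change of 1.5, list counts and medians were computed in Python 3.11.15 with numpy 2.4.6, pandas 2.3.3, scipy 1.17.1 and matplotlib 3.10.9, and the code was tested on simulated data. No test was made. The 29 pathway lists and 25 cell type marker lists hold 1197 entries, of which 85 were not analysed here. The members and lists were chosen with earlier results of these data known, so no list is independent evidence. Named genes are those the study names for 6 hours, the 15 furthest above and 15 furthest below SHAM among genes above the median level, and up to 6 members of each list past the threshold either way (the 2 furthest from 0 where none was), with others said to be chosen after their values were seen. For cell types the defining markers are given at their level. The alternatives were centring each array, quantile normalization once more, a 2-fold threshold, a filter at the median level, the mean or another choice of probe sets, leaving out probe sets whose names mark probes shared between transcripts and, added after seeing the data, any probe set of a gene and the level trend subtracted in 20 bins.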

Additional observations from a re-analysis of the deposited data

Results flagged for a closer look

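Among the 82 named genes past the threshold at 6 hours, 20 were past it in the opposite direction at a later time, in 23 pairs of gene and time. Each rests on 1 array a side and other mice, and the difference between the times was not tested. Over all genes 1.88%, 1.14% and 1.98% were past the threshold upward at 1, 3 and 7 days, and 1.09%, 0.511% and 1.48% downward. Of the 11 chemokines lower at 6 hours, 6 were past the threshold upward at a later time, and so was Il6, with log2 differences of 0.61 at 1 day and 0.80 at 3 days for Cxcl10, 0.63 at 3 days for Cxcl1, 0.68 at 1 day for Cxcl3, 0.63 at 1 day for Cxcl9, 1.32 at 7 days for Ccl8, 1.26 at 3 days for Ccl2, which is not among those 20, and 1.47 at 3 days for Il6. The macrophage protease Mmp12 was 1.24 at 3 days. The T cell receptor chains Cd3g and Cd247 were 1.23 and 1.11 at 1 day.

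Of the genes higher at 6 hours, the heat shock genes Hsph1 and Hspa1b were -0.74 and -0.82 at 1 day. Saa3 was -0.72 at 1 day and -0.60 at 7 days, Muc5b -0.65 at 1 day, Bpifa1 -0.61 at 3 days, Fabp4 -0.61 at 3 days, Wt1 -0.96 at 7 days and Ngp -0.86 at 7 days. Antibody genes changed sign too, with Ighm at -1.84 at 3 days and -2.25 at 7 days, Igk at -0.67 at 3 days and Igkv15-103, lower at 6 hours, at 2.88 at 1 day.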

How the results depend on the processing

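Higher and lower genes numbered 124 and 189, and they numbered 277 and 396 when any probe set of a gene was counted, 12 and 10 at a fold change of 2, and 82 and 62 among genes above the median level. The share of these genes that were higher (39.6%) was 58.1% with each array centred on its median, 54.5% at a fold change of 2, 56.9% above the median level, 52.4% with the level trend subtracted and 51.8% with quantile normalization once more, so the balance of higher and lower genes turns on these choices. At a fold change of 2 the lists kept 4 of 11 lower chemokines, 3 of 8 lower interferon-stimulated genes, 1 of 6 lower cytokines, 2 of 7 higher acute phase genes, 2 of 4 higher adipocyte genes and 1 of 4 higher goblet cell genes. Without probe sets whose names mark shared probes 5 interferon-stimulated genes were lower, above the median level 1 cytokine was, and with quantile normalization once more 3 acute phase genes were higher. Ighm turned from 0.82 to -0.08 as the mean of its probe sets and to -0.31 without those with shared probes. Of 82 named genes past the threshold, 49 were past it under every alternative that gave a value and 33 fell under it in at least 1. The 2-fold threshold, the filter at the median level and the count of any probe set were not applied to single genes. Over all 129 named genes, those within the threshold included, 692 of 758 values kept both their sign and their call. The cause was not tested. No paired analysis was possible because each group has 1 array. Replicates could not be left out for the same reason. The SD of the differences was 0.22 in the dimmest of the 10 bins of level, 0.27 in the fifth and 0.153 in the brightest.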

Other observations

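The other fibrinogen chains did not share the value of Fga, with differences of 0.00 for Fgb and -0.10 for Fgg, named after their values were seen, and a list of 14 liver secreted proteins was added after its value was seen. Of 13 measured, 2 were at least 1.5-fold higher in PNY at 6 hours, Fga and Alb, and none lower, with a median difference of 0.00. Alb, serum albumin, read 6.45 in PNY and 5.43 in SHAM at 6 hours and 5.07 to 5.46 on the later arrays. The summed linear level of the list was 1169 in PNY and 1095 in SHAM, against 633 to 887 later. How this RNA came to the lung pools was not tested.

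The summed linear level of the lymphatic endothelial markers, which bright members dominate, was 12765 in PNY and 10284 in SHAM at 6 hours, against 5956 to 7371 later. Their median level did not set both early arrays apart, at 8.11 in PNY and 7.82 in SHAM against 7.68 to 8.05 later. None of the 7 was past the threshold between the pools.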
